A study of Homo sapiens with 42 samples.

Results

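The transcripts of 10 genes of the NF-kB pathway were followed in MOLM-13 cells across 7 culture conditions, in total RNA (input) and in RNA from heavy polysomes. They are 3 NF-kB subunit genes (NFKB1, NFKB2 and RELB) and 7 genes that NF-kB is known to induce, several of which feed back on the pathway (NFKBIA, NFKBIE, TNFAIP3, BIRC3, ICAM1, TRAF1 and BCL3). The genes were picked by name, as the rows of the count table whose gene name was one of these 10 among 57353 names, and each was found on a single row. MOLM-13 is an acute myeloid leukemia line whose growth is driven by FLT3 with an internal tandem duplication (FLT3-ITD), and all groups were made of this line, with no engineered change. Cells were cultured for 12 hr in RPMI or in hBMSC-CM, a medium conditioned by HS-5, a human marrow stromal line. They received vehicle (DMSO), the FLT3 inhibitor quizartinib (AC220) at 3 nM, the mTORC1 inhibitor everolimus at 10 nM, or both drugs together (combo). RPMI cultures received vehicle, quizartinib or combo, and hBMSC-CM cultures received vehicle, quizartinib, everolimus or combo. Before harvest, the paper's polysome protocol also treated the cells of every condition briefly with cycloheximide to halt translation. Its part in the levels was not tested. Each of the 7 conditions had 3 cultures, each sequenced as input and as heavy polysome RNA, which gave 42 libraries in 14 groups. The model is a single cell line, and hBMSC-CM carries the factors that HS-5 cells release but not the cells.

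NF-kB is a family of dimeric transcription factors held inactive in the cytoplasm by inhibitor (IkB) proteins. In the canonical arm, signals from receptors such as those for TNF, IL-1 and bacterial products activate the IKK complex, which marks IkB proteins for destruction and releases dimers that contain RELA. In the noncanonical arm, stabilization of the kinase NIK, encoded by MAP3K14, leads to processing of the NFKB2 product and to dimers that contain RELB. The factors induce their own inhibitors, so target genes such as NFKBIA and TNFAIP3 are both readouts and brakes of the pathway. In acute myeloid leukemia, NF-kB is known for supporting survival and for responding to cytokines of the marrow stroma.

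Positions are on GRCh38 (GENCODE v44), and each gene is protein-coding. NFKB1 (ENSG00000109320, chr4:102501330-102617302, plus strand) encodes a precursor of a DNA-binding subunit of the canonical arm. NFKB2 (ENSG00000077150, chr10:102394110-102402524, plus strand) encodes the precursor that the noncanonical arm processes, and RELB (ENSG00000104856, chr19:45001461-45038192, plus strand) its usual partner. NFKBIA (ENSG00000100906, chr14:35401079-35404749, minus strand) and NFKBIE (ENSG00000146232, chr6:44258166-44265788, minus strand) encode the inhibitors IkB alpha and IkB epsilon. TNFAIP3 (ENSG00000118503, chr6:137867214-137883314, plus strand) encodes a ubiquitin-editing enzyme that shuts off signalling to IKK. BIRC3 (ENSG00000023445, chr11:102317484-102339403, plus strand) encodes a ubiquitin ligase of TNF receptor complexes, and TRAF1 (ENSG00000056558, chr9:120902393-120929173, minus strand) an adaptor of the same complexes. ICAM1 (ENSG00000090339, chr19:10271093-10286615, plus strand) encodes an adhesion molecule of the cell surface. BCL3 (ENSG00000069399, chr19:44747705-44760044, plus strand) encodes a nuclear IkB-like protein that binds NF-kB dimers on DNA. Exons of opposite-strand genes overlapped 95 exonic bases of TNFAIP3, 126 of BIRC3 and 876 of ICAM1, and a microRNA gene on the same strand overlapped 65 of BCL3. The sources do not state a strand setting for the counting, so reads in these stretches cannot be told apart by gene.

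Stretches before a RefSeq transcript start are shown for 5 of the genes. Those of NFKB1, NFKB2 and TRAF1 are not shown. BCL3 and ICAM1 had the largest input differences between media, and BIRC3 was hardly detected. NFKBIA and TNFAIP3 encode feedback inhibitors whose transcripts stood on opposite sides of their vehicle level under quizartinib in RPMI, although NFKBIA was not called. Sequences are from RefSeq (GRCh38.p14), 5′ to 3′ on the strand of the gene, without annotated exon bases, with each match to the 10-letter kappa B consensus in capitals. NFKBIA lies at chr14:35404750-35404999 (minus strand), TNFAIP3 at chr6:137867009-137867213, BIRC3 at chr11:102317234-102317483, ICAM1 at chr19:10270870-10271092 and BCL3 at chr19:44748458-44748694 (plus strand for the last 4).
NFKBIA: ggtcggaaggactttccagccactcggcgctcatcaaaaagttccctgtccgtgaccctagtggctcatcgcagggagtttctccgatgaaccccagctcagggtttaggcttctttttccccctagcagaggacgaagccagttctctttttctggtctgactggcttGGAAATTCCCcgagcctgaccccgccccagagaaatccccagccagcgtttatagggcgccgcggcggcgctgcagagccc
TNFAIP3: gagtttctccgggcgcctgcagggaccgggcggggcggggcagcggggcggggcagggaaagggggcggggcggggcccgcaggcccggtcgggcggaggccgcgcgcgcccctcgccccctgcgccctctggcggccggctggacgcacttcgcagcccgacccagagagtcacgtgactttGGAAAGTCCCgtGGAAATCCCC
BIRC3: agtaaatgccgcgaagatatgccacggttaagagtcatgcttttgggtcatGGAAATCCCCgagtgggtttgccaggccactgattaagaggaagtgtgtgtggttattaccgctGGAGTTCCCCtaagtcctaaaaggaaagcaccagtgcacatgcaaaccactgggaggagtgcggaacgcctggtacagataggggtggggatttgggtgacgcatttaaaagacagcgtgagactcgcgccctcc
ICAM1: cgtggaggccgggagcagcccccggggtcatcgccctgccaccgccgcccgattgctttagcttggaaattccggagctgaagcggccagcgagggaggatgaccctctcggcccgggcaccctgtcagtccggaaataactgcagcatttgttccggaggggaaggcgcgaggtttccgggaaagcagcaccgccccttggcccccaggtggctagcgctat
BCL3: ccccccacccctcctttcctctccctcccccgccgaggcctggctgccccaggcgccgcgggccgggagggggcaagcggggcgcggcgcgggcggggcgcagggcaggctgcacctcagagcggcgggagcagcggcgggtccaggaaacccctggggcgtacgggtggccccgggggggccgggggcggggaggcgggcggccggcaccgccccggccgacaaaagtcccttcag
The NFKBIA stretch held 1 match, 81 bases before the transcript start. The TNFAIP3 stretch held 2 matches, 67 and 55 bases before the start, and the BIRC3 stretch held 2, at 199 and 135 bases. Distances are to the RefSeq start, which can differ from the GENCODE gene start given above. For TNFAIP3 the RefSeq window ends at 137867258, past the GENCODE start at 137867214. The BCL3 stretch lies inside the GENCODE gene, which starts at 44747705. The consensus searched was GGG, then A or G, any 2 bases, 2 bases of C or T, and CC. No exact match was found in the ICAM1 or BCL3 stretch, and near matches were not counted. The ICAM1 stretch holds ggaaattccg, which differs only in its last letter from the NFKBIA match, so a site there is not excluded. RefSeq windows of 250 bases before a transcript start were found for 8 of the 10 genes (13 windows), and the consensus, searched on both strands, was found in 6 of these windows and 5 of these genes (NFKB1, NFKB2, NFKBIA, TNFAIP3 and BIRC3), compared to 9.96% of all 35114 windows in the reference. In NFKB2, the matches 107 and 106 bases before a start overlap each other. A match is a description of letters, not a measured binding site.

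The libraries held 19.4 to 37.2 M counts for input and 21.5 to 38.8 M for polysomes. Of the 10 leukemic myeloid marker genes all 10 were detected in each medium, with a summed input level of 1470 to 2080 CPM (counts scaled to a common library size) in RPMI and 1600 to 2860 CPM in hBMSC-CM. FLT3, one of them, was lower in hBMSC-CM than in RPMI under vehicle (46.6 ± 17.2 compared to 118 ± 26.7 CPM, SD, n = 3, adjusted p = 0.00219). It was also lower there under quizartinib (log2 -2.21, adjusted p = 3.06e-07) and combo (log2 -1.84, adjusted p = 7.07e-06). Quizartinib raised FLT3 in RPMI (log2 1.05, adjusted p = 0.00168), with no call in hBMSC-CM (log2 0.19, adjusted p = 0.69). LYZ, the lysozyme gene, was higher in hBMSC-CM under quizartinib (887 ± 129 compared to 409 ± 44.5 CPM, adjusted p = 0.00104). It was not called between media under vehicle (adjusted p = 0.58) or combo (adjusted p = 0.0767). Quizartinib raised CSF3R, the receptor of granulocyte colony-stimulating factor, in RPMI (134 ± 26.8 to 378 ± 95.8 CPM, adjusted p = 8.71e-05) and in hBMSC-CM (272 ± 42.1 to 566 ± 67.8 CPM, adjusted p = 0.0118). It also raised MEIS1 in RPMI (log2 1.00, adjusted p = 7.82e-05) and hBMSC-CM (log2 0.76, adjusted p = 0.00699), and PTPRC in RPMI (log2 1.36, adjusted p = 0.0115). The 15 stromal markers summed to 4.06 to 48.2 CPM in RPMI input and 6.45 to 44.8 CPM in hBMSC-CM input. Of these, COL3A1, LUM and POSTN were at 0 in every library. COL6A2 was at 0 in RPMI input and reached 4.73 CPM in hBMSC-CM input, and COL6A1 reached 0.745 and 4.63 CPM. The highest input value was also larger in hBMSC-CM for FN1, SPARC, TAGLN, THBS1 and FBN1. It was smaller there for COL1A1, COL1A2 and DCN. Of the 3 stromal markers abundant enough to test, THBS1, the thrombospondin gene, was higher in hBMSC-CM than in RPMI under vehicle (1.86 ± 0.71 compared to 0.0899 ± 0.0784 CPM, adjusted p = 0.000478), quizartinib (5.001 ± 1.02 CPM compared to 0, adjusted p = 6e-08) and combo (9.19 ± 2.96 CPM compared to 0, adjusted p = 1.5e-08). Its part in the results between media was not tested. Under quizartinib 2 of the 3 were higher in each medium, COL1A1 (20.5 ± 12.3 compared to 0.948 ± 1.22 CPM in RPMI and 12 ± 7.16 compared to 0.633 ± 0.0927 CPM in hBMSC-CM) and TAGLN (log2 0.98, adjusted p = 0.0119, and log2 1.02, adjusted p = 0.0255), while THBS1 was lower in RPMI (adjusted p = 0.0156). Their part in the quizartinib results was not tested. Nothing in the labels says that cultures were separate experiments, so p-values measure the spread between these cultures. In bulk RNA, fewer cells with a transcript and less of it per cell cannot be told apart.

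Of the 10 genes, 9 passed the filter on low values (at least 1 count and 1 CPM on average over all libraries). BIRC3 did not. It was at 0 in 41 of 42 libraries, and its largest value was 4 counts, in the input of RPMI quizartinib culture 3. A count of 0 allows a level of up to 0.0756 to 0.15 CPM, depending on library depth (3 counts, counting error only). Levels per kilobase were taken over all annotated exon bases of a gene, which can far exceed 1 transcript. NFKB1 has 15679 such bases and a longest coding transcript of 4153, and NFKBIA 3394 and 1853, so the order of genes depends on this choice. On this scale, the highest mean input level in RPMI vehicle was that of NFKBIE (13.8 ± 2.9 CPM per kb). NFKBIA (9.04 ± 1.85 CPM per kb) and TNFAIP3 (3.93 ± 0.773 CPM per kb) followed, while BCL3 stood at 1.7 ± 0.736 CPM per kb. In hBMSC-CM vehicle, BCL3 had the highest mean (28.1 ± 9.49 CPM per kb), above NFKBIE at 17.2 ± 7.7 CPM per kb. In hBMSC-CM combo, BCL3 was at 92.5 ± 30.2 CPM per kb, followed by NFKBIA at 14.4 ± 2.19 and NFKBIE at 13.7 ± 3.19 CPM per kb.

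**Figure D1:**
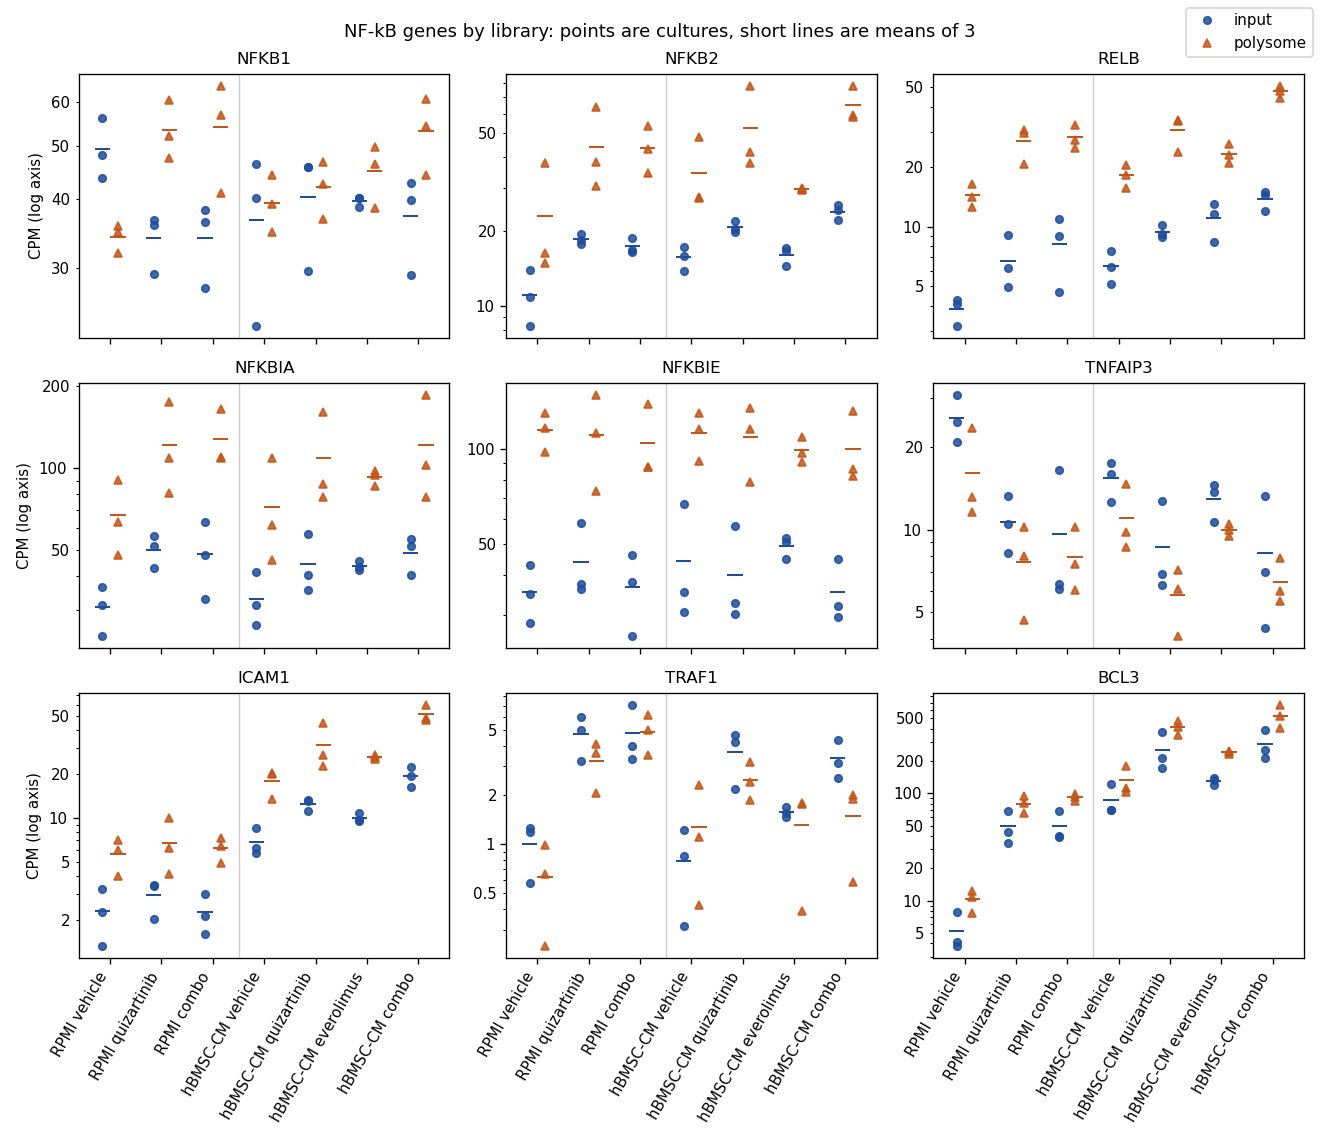
Level of each gene in CPM (log axis) in the 21 cultures, by condition, for input and heavy polysome RNA. Each point is 1 library, and short lines are means of 3. BCL3 input runs from 3.79 CPM in an RPMI vehicle culture to 392 CPM in an hBMSC-CM combo culture, while NFKB1 input runs from 23.6 to 56.2 CPM.

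BCL3 had the largest change of the 9 genes. The input of RPMI vehicle cultures held 3.79, 4.11 and 7.88 CPM of BCL3, and that of hBMSC-CM vehicle cultures 70.5, 69.7 and 121 CPM. The groups did not overlap, and the level was 16.6-fold higher in hBMSC-CM (log2 4.05, SE 0.34, adjusted p = 2.89e-10). ICAM1 was the other gene that rose with the medium, from 2.27, 3.25 and 1.32 CPM in RPMI to 5.72, 8.55 and 6.17 CPM in hBMSC-CM (log2 1.57, SE 0.31, adjusted p = 0.00269). The ICAM1 call was lost when only these libraries were fitted (adjusted p = 0.108). Thus 2 of 9 genes were called between media under vehicle, where 1.51% of all genes tested were called, and the median of the 9 was 0.33 on the log2 scale, compared to -0.01 over all genes. None of the other 7 passed the test, with log2 differences of -0.73 for TNFAIP3 to 0.72 for RELB.

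The same pair, and no other of the 9, was called between media under drug. Under quizartinib, BCL3 was at 34.7, 43.9 and 68.8 CPM in RPMI and at 215, 170 and 370 CPM in hBMSC-CM (log2 2.36, SE 0.32, adjusted p = 1.77e-06). ICAM1 was at 3.40, 3.44 and 2.02 CPM in RPMI and at 11.2, 13.0 and 13.3 CPM in hBMSC-CM (log2 2.08, SE 0.31, adjusted p = 1.22e-05). Neither gene's groups overlapped, and 8.16% of all genes were called. Under combo, ICAM1 was at 1.60, 3.01 and 2.12 CPM in RPMI and at 16.3, 22.6 and 19.3 CPM in hBMSC-CM, 8.61-fold higher (log2 3.11, SE 0.33, adjusted p = 1.37e-08). BCL3 was 5.82-fold higher there (log2 2.54, SE 0.32, adjusted p = 5.83e-07), and 5.36% of all genes were called. RELB under combo differed by 0.75 on the log2 scale (adjusted p = 0.0689), and was called with the replicate number as a block within each fraction (adjusted p = 0.0108) or without RPMI combo culture 2 (adjusted p = 0.0208). The medians of the 9 genes were 0.17 and 0.13, compared to -0.03 over all genes in both comparisons.

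Ordered by mean input level, BCL3 went from RPMI vehicle (5.26 ± 2.28 CPM) to RPMI quizartinib and RPMI combo (49.1 and 49.2 CPM), hBMSC-CM vehicle (87 CPM), everolimus (130 CPM), quizartinib (252 CPM) and combo (286 CPM). The neighbours RPMI quizartinib and combo, hBMSC-CM vehicle and everolimus, and hBMSC-CM quizartinib and combo overlapped. The 3 RPMI conditions overlapped for ICAM1. In hBMSC-CM its mean went from vehicle (6.81 CPM) over everolimus (9.99 CPM) and quizartinib (12.5 CPM) to combo (19.4 CPM), and these neighbours did not overlap. The tests of everolimus compared to vehicle and of combo compared to quizartinib did not call ICAM1, and quizartinib was not compared to everolimus. The share of all genes without such overlap was not determined. For NFKBIE, whose means lay between 35.5 and 49.5 CPM, all neighbours overlapped.

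Quizartinib in RPMI was the comparison with the most calls, 6 of the 9 genes (4 higher, 2 lower), but 34.6% of all genes tested were called there (16.6% higher, 18% lower). The median of the 9 genes was 0.71 on the log2 scale, compared to 0.08 over all genes. Among the targets, BCL3 rose from 3.79, 4.11 and 7.88 CPM under vehicle to 34.7, 43.9 and 68.8 CPM, 9.37-fold (log2 3.23, SE 0.33, adjusted p = 1.87e-09). TRAF1 rose from 0.581, 1.18 and 1.25 CPM to 3.24, 5.01 and 5.97 CPM, 4.73-fold (log2 2.24, SE 0.56, adjusted p = 0.00177). Neither gene's groups overlapped, and both calls held in 31 of 31 other fits. ICAM1 did not pass the test (log2 0.37, SE 0.31, adjusted p = 0.388).

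The inhibitors of the pathway did not move as a group under quizartinib in RPMI. TNFAIP3 fell from 24.6, 30.7 and 20.8 CPM to 8.23, 13.2 and 10.4 CPM, 2.38-fold lower with no overlap (log2 -1.25, SE 0.37, adjusted p = 0.00779). NFKBIA stood at 24.1, 36.6 and 31.4 CPM under vehicle and at 42.7, 56.1 and 51.7 CPM under quizartinib, again with no overlap, yet it did not pass the test (log2 0.71, SE 0.32, adjusted p = 0.0897). With the replicate number as a block within each fraction it was called (log2 0.72, adjusted p = 0.000326). NFKBIE overlapped between the groups (log2 0.31, SE 0.30, adjusted p = 0.445).

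The subunit genes split as well. RELB rose from 3.16, 4.08 and 4.30 CPM to 4.96, 9.06 and 6.16 CPM (log2 0.81, SE 0.25, adjusted p = 0.0101), and NFKB2 from 8.26, 10.9 and 13.9 CPM to 18.4, 19.6 and 17.8 CPM (log2 0.76, SE 0.29, adjusted p = 0.04). Both genes of the noncanonical arm were thus higher in each quizartinib culture than in any vehicle culture, but the share of all genes without overlap was not determined. NFKB1 fell from 56.2, 48.1 and 43.7 CPM to 35.9, 36.8 and 29.3 CPM (log2 -0.54, SE 0.21, adjusted p = 0.046). The NFKB1 call is close to the threshold and was lost in 16 of 31 other fits, DESeq2 (adjusted p = 0.0534) and the fit without RPMI vehicle culture 1 (adjusted p = 0.179) among them. RELB was lost without RPMI vehicle culture 1 (adjusted p = 0.0665) or RPMI quizartinib culture 2 (adjusted p = 0.131), and NFKB2 in 5 of 31 fits, each without 1 culture (adjusted p up to 0.119, without RPMI vehicle culture 1).

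In hBMSC-CM, quizartinib changed 3 of the 9 genes, all upward, where 12.3% of all genes were called. BCL3 rose from 70.5, 69.7 and 121 CPM to 215, 170 and 370 CPM, 2.89-fold (log2 1.53, SE 0.31, adjusted p = 0.00104). TRAF1 rose from 0.846, 1.21 and 0.315 CPM to 2.18, 4.19 and 4.65 CPM (log2 2.22, SE 0.57, adjusted p = 0.00803), and without hBMSC-CM vehicle culture 3 its adjusted p was 0.0514. ICAM1 rose from 5.72, 8.55 and 6.17 CPM to 11.2, 13.0 and 13.3 CPM (log2 0.88, SE 0.30, adjusted p = 0.0497). None of these groups overlapped, but the ICAM1 call was lost in 14 of 31 other fits, most of them without a single culture (adjusted p up to 0.167, without hBMSC-CM vehicle culture 3).

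With the replicate number as a block within each fraction, 6 genes were called for quizartinib in hBMSC-CM. The added genes were RELB (log2 0.59, adjusted p = 0.0393), NFKBIA (log2 0.43, adjusted p = 0.0434) and TNFAIP3 (log2 -0.89, adjusted p = 0.0183). Their input levels under vehicle and quizartinib overlapped for NFKBIA (26.4, 41.3 and 31.2 compared to 35.5, 57.4 and 40.4 CPM), while those of TNFAIP3 (15.9, 17.4 and 12.6 compared to 6.90, 12.7 and 6.29 CPM) overlapped by 1 culture. The median of the 9 genes was 0.43, compared to 0.01 over all genes.

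**Figure D2:**
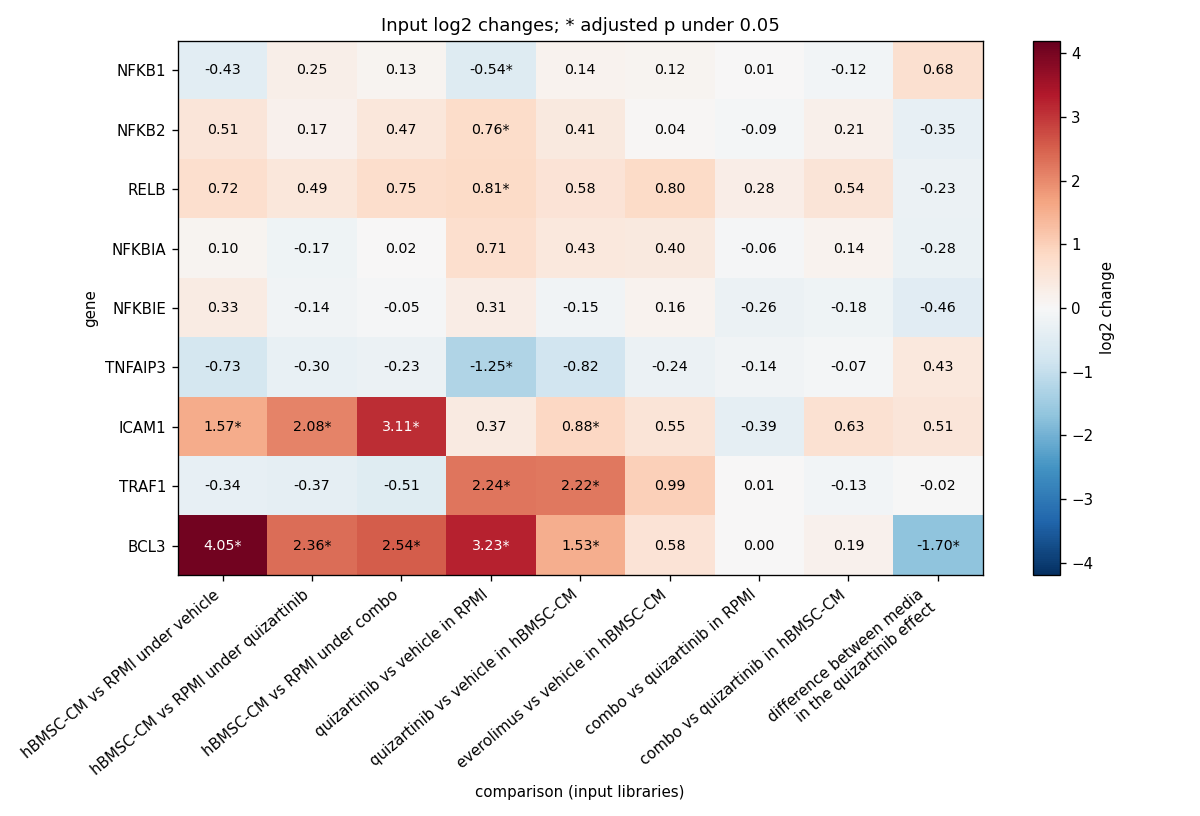
Log2 difference of each gene (rows) in the 9 input comparisons (columns), printed in each cell and colored red for higher and blue for lower, with an asterisk where the adjusted p was under 0.05. BCL3 is at 4.05 for hBMSC-CM compared to RPMI under vehicle and at 3.23 for quizartinib in RPMI, and the everolimus and combo columns hold no asterisk outside the comparison between media.

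The difference between media in the quizartinib effect was tested directly. It was called for BCL3 alone among the 9 (log2 -1.70, SE 0.43, adjusted p = 0.0272), where 1.96% of all genes were called: quizartinib raised BCL3 by 3.23 on the log2 scale in RPMI and by 1.53 in hBMSC-CM. The call was lost in 7 of 31 other fits, with only the libraries compared (adjusted p = 0.109) or without 1 of 6 cultures, and at most without RPMI quizartinib culture 3 (log2 -1.36, adjusted p = 0.159). For TRAF1 the quizartinib effects were 2.24 and 2.22, and their difference was -0.02 with a 95% interval of -1.69 to 1.64. NFKB1 differed by 0.68 (adjusted p = 0.405). The median of the 9 differences was -0.23, compared to -0.04 over all genes.

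Everolimus alone in hBMSC-CM called 0 of the 9 genes (edgeR quasi-likelihood test, with 0 also by DESeq2 and by limma voom), and 1 gene, RELB, had an unadjusted p under 0.05. RELB was at 5.14, 6.25 and 7.54 CPM under vehicle and at 13.0, 8.39 and 11.6 CPM under everolimus, with no overlap (log2 0.80, SE 0.24, adjusted p = 0.159). Only 0.41% of all genes were called. BCL3 was at 70.5, 69.7 and 121 CPM compared to 121, 132 and 138 CPM (log2 0.58, SE 0.30, adjusted p = 0.611). A replicate block within each fraction called RELB and BCL3, but the replicate numbers of everolimus and vehicle cultures did not deviate together. Everolimus cultures also lay closer together than vehicle cultures in input (SD of BCL3 8.73 compared to 29.4 CPM). Among the tested genes, only RELB went the other way (2.36 compared to 1.2 CPM). Whether everolimus cultures were run together with the others is not stated, so such a difference cannot be told apart from the drug. The median of the 9 genes was 0.40, compared to -0.02 over all genes.

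Adding everolimus to quizartinib called 0 of the 9 genes in either medium by edgeR, DESeq2 or limma voom. In RPMI, 0 genes had an unadjusted p under 0.05, 0.00773% of all genes were called, and BCL3 was at 38.9, 40.1 and 68.5 CPM under combo, with a difference from quizartinib of 0.00 and a 95% interval of -0.62 to 0.62 (log2). In hBMSC-CM, 2 genes had an unadjusted p under 0.05 and 0.24% of all genes were called. ICAM1 was at 11.2, 13.0 and 13.3 CPM under quizartinib and at 16.3, 22.6 and 19.3 CPM under combo, with no overlap (log2 0.63, SE 0.30, adjusted p = 0.773). RELB was at 8.90, 10.2 and 9.17 CPM and at 14.3, 14.9 and 12.0 CPM, also with no overlap (log2 0.54, SE 0.24, adjusted p = 0.704). The medians of the 9 were -0.06 in RPMI and 0.14 in hBMSC-CM, compared to -0.02 and 0.00 over all genes.

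Across the 21 input libraries, log2 levels of BCL3 correlated with those of NFKB2 (Pearson r = 0.81), RELB (r = 0.81) and ICAM1 (r = 0.79), and inversely with TNFAIP3 (r = -0.70). NFKB1 correlated inversely with NFKBIE (r = -0.72). These values describe 7 conditions of 3 cultures that share media, drugs and library preparation.

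In heavy polysomes most of the 9 genes took a larger share of the reads than in input. Of 63 pairs of gene and condition, 44 were called higher and 1 lower, where 27.9% to 32.9% of all genes were called higher in each condition and, in RPMI vehicle, 33.9% lower. RELB had the largest median, with log2 differences between polysome and input of 0.97 to 2.61 over the 21 cultures (median 1.69). In RPMI vehicle it was at 3.16, 4.08 and 4.30 CPM in input and at 16.4, 12.6 and 14.1 CPM in polysomes. NFKBIE (0.33 to 2.15, median 1.57), ICAM1 (0.77 to 2.00, median 1.25), NFKBIA (0.79 to 1.76, median 1.11), NFKB2 (0.24 to 2.20, median 1.03) and BCL3 (0.23 to 1.39, median 0.82) followed, and these 6 genes were above 0 in 21 of 21 cultures. The share of all genes above 0 in 21 of 21 cultures was not determined, so it is not known if this count is particular to the 6.

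The other 3 genes were not raised in this way. TNFAIP3 was above 0 in 5 of 21 cultures (-1.43 to 0.69), TRAF1 in 8 of 21 (-1.99 to 0.89) and NFKB1 in 13 of 21 (-0.81 to 1.05). Neither TNFAIP3 nor TRAF1 was called in any condition. TNFAIP3 in RPMI vehicle (log2 -0.66, SE 0.37, adjusted p = 0.113) was called lower with a replicate block within each fraction (adjusted p = 0.0337), and TRAF1 in hBMSC-CM combo (log2 -1.16, SE 0.54, adjusted p = 0.0598) with that block (adjusted p = 0.0238) or a block per culture (adjusted p = 0.0186). NFKB1 was called lower in RPMI vehicle (log2 -0.53, SE 0.21, adjusted p = 0.0293) and higher in RPMI quizartinib, RPMI combo and hBMSC-CM combo (log2 0.65, 0.67 and 0.51). With a block per culture, NFKB1 was not called in RPMI vehicle (adjusted p = 0.0644) or hBMSC-CM combo (adjusted p = 0.068). BCL3 in hBMSC-CM vehicle was not called (log2 0.60, adjusted p = 0.0814) but was with that block (adjusted p = 0.0127) or the block within each fraction (adjusted p = 0.000449).

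The calls of RELB, NFKBIA, NFKBIE and ICAM1 in polysomes compared to input held without any single culture. NFKB2 in RPMI vehicle fell to 0.33 on the log2 scale without culture 1 (adjusted p = 0.356), whose own difference was 2.20, and NFKB2 under everolimus was lost without everolimus culture 1 (adjusted p = 0.0636). Each NFKB1 call and each BCL3 call was lost without at least 1 culture. The highest adjusted p was 0.434 for NFKB1, in hBMSC-CM combo without culture 3, and 0.287 for BCL3, in RPMI quizartinib without culture 2.

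By condition, 6, 7 and 7 of the 9 genes were called higher in RPMI vehicle, quizartinib and combo, where 31.5%, 31.2% and 31.7% of all genes were. In hBMSC-CM vehicle, quizartinib, everolimus and combo, 5, 6, 6 and 7 were, where 29.6%, 29.7%, 27.9% and 32.9% of all genes were. The 1 gene called lower was NFKB1 in RPMI vehicle, where 33.9% of all genes were called lower. The medians of the 9 genes were 0.90 to 1.33 on the log2 scale, compared to -0.11 to 0.06 over all genes. With library size as the only scaling, the median of all genes moved to -0.63 to -0.22, and the calls among the 63 pairs became 30 higher and 5 lower.

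The share of G and C bases in a transcript moved with these differences. Over 10549 tested genes (81.5%) with a protein-coding transcript, the log2 difference between polysome and input correlated with transcript GC content at Pearson r = 0.65 to 0.73 in the 7 conditions, a correlation across genes, which are not independent replicates. The median difference was 0.94 to 1.26 in genes above the upper quartile of GC content (56.9%) and -1.36 to -0.93 in genes below the lower quartile (41.8%). BCL3 (66.4% GC), RELB (64.9%), NFKB2 (62.4%) and NFKBIE (61.0%) lay above the upper quartile, and ICAM1 (56.0%), TRAF1 (55.4%) and NFKBIA (52.9%) lay above the median of 48.6%. NFKB1 (49.9%) and TNFAIP3 (49.6%) were near the median, and BIRC3 (35.8%) was among the lowest.

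With the GC trend of each library removed, an alternative chosen after the data were seen, 10 of the 63 pairs were called, 7 higher and 3 lower, where 36.3% to 40.7% of the 10549 genes were called in each condition. RELB was higher in RPMI vehicle (log2 0.65, adjusted p = 0.0216), RPMI quizartinib (0.87, adjusted p = 0.00273), RPMI combo (0.59, adjusted p = 0.0349) and hBMSC-CM combo (0.56, adjusted p = 0.0404). NFKBIE was higher in RPMI vehicle (0.61, adjusted p = 0.0201), and ICAM1 in hBMSC-CM vehicle (0.64, adjusted p = 0.0484) and everolimus (0.72, adjusted p = 0.0264). NFKB1 was lower in RPMI vehicle (-0.60, adjusted p = 0.0144), and TRAF1 in RPMI quizartinib (-1.36, adjusted p = 0.0398) and hBMSC-CM combo (-1.99, adjusted p = 0.00374). BCL3 turned to -0.06 to -0.48 in the 7 conditions, with no call in this fit. With a block per culture as well, 16 pairs were called higher and 6 lower, where 42.4% to 46.3% of genes were called. With a block within each fraction in its place, 25 were called higher and 11 lower, where 52% to 55.6% of genes were called. BCL3 was then called lower in 3 of 7 conditions, RPMI quizartinib (adjusted p = 0.0324), hBMSC-CM vehicle (adjusted p = 0.00371) and hBMSC-CM quizartinib (adjusted p = 0.0373), and with the block per culture in hBMSC-CM vehicle (adjusted p = 0.0104). The input calls moved little, to 14 higher and 2 lower of 81 pairs from 13 and 3.

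**Figure D3:**
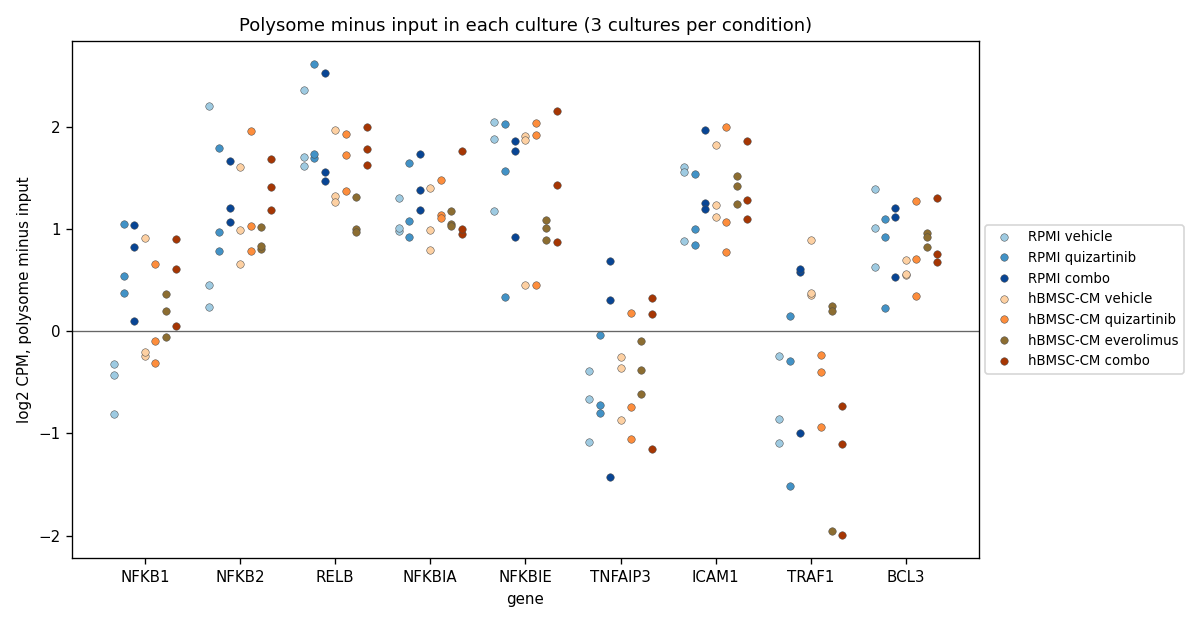
Log2 CPM in heavy polysomes minus input for each gene in each culture, by condition, with a line at 0. RELB, NFKBIE, ICAM1, NFKBIA, NFKB2 and BCL3 lie above 0 in 21 of 21 cultures, whereas TNFAIP3 lies above 0 in 5 and TRAF1 in 8. The matching share of all genes was not determined.

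The difference between polysome and input was itself compared between conditions, which asks if a transcript moved in polysomes beyond its change in input. One of the 9 genes passed, NFKB1 for quizartinib compared to vehicle in RPMI (log2 1.18, SE 0.30, adjusted p = 0.0324), where 1.55% of all genes were called. NFKB1 in polysomes was at 32.0, 35.8 and 34.9 CPM under vehicle and at 52.1, 47.6 and 60.5 CPM under quizartinib, while its input went the other way. The culture values of polysome minus input were -0.81, -0.43 and -0.32 under vehicle and 0.54, 0.37 and 1.05 under quizartinib, with no overlap. The call was lost in 15 of 33 other fits, with a block per culture (adjusted p = 0.102), with the GC trend removed (log2 0.96, adjusted p = 0.11) and without RPMI quizartinib culture 3 (log2 0.90, adjusted p = 0.391) among them. In hBMSC-CM the same effect was -0.05 (SE 0.30), and the difference between media was -1.23 (SE 0.42, unadjusted p = 0.00651, adjusted p = 0.892).

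In the other 8 comparisons of this kind edgeR called 0 of the 9 genes and 0% of all genes. An unadjusted p under 0.05 was found for 1 of the 9, NFKB1, between media under vehicle and for the difference between media, and for 0 in the remaining comparisons. The medians of the 9 genes were -0.05 to 0.18 on the log2 scale over the 9 comparisons, compared to -0.09 to 0.15 over all genes. For BCL3, the rise in input was carried into polysomes, at 7.67, 10.9 and 12.2 CPM in RPMI vehicle, 104, 113 and 179 CPM in hBMSC-CM vehicle and 406, 526 and 660 CPM in hBMSC-CM combo. Polysome levels of BCL3 in hBMSC-CM vehicle did not overlap those in RPMI vehicle.

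Other genes of the pathway were followed as lists. Of 10 receptors tested, 2 rose and 0 fell between media under vehicle, 5 and 0 under quizartinib, and 6 and 0 under combo. Of all genes, 1.51%, 8.16% and 5.36% were called there in either direction. CD14, the co-receptor for bacterial lipopolysaccharide, was at 1.25 ± 0.583 CPM in hBMSC-CM vehicle and at 0.155 ± 0.145 CPM in RPMI vehicle. Of 22 other target genes, 4, 7 and 6 rose and 0, 1 and 1 fell in these comparisons. MMP9, a matrix metalloproteinase, was at 18.4 ± 11.2 CPM in hBMSC-CM vehicle and at 1.02 ± 0.979 CPM in RPMI vehicle (log2 4.17, adjusted p = 0.00285), while CD83, a surface marker of activated antigen-presenting cells, was lower in hBMSC-CM than in RPMI under quizartinib (log2 -0.98, adjusted p = 0.00701). CCL2, a monocyte chemokine, was at 1.57 ± 0.313 CPM in hBMSC-CM combo and at 0 in the RPMI combo libraries.

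Of 28 genes of IKK and upstream signalling, 0 were called between media under vehicle by edgeR, with 1 at an unadjusted p under 0.05. There 1.51% of all genes were called. Quizartinib in RPMI raised 9 and lowered 3 of them, where 16.6% of all genes were called higher and 18% lower. TRAF3, an adaptor that keeps NIK at a low level, fell from 24.3 ± 2.19 to 4.07 ± 0.631 CPM (log2 -2.57, adjusted p = 6.16e-08), and MAP3K8, a kinase downstream of IKK, rose from 3.36 ± 0.291 to 9.67 ± 1.37 CPM (log2 1.53, adjusted p = 3.61e-05). Under quizartinib TRAF3 was higher in hBMSC-CM than in RPMI (12.2 ± 3.13 CPM, log2 1.58, adjusted p = 0.000483), and its quizartinib effect differed between media (log2 1.84, adjusted p = 0.0121). TAB1, a partner of the kinase TAK1, was lower in hBMSC-CM under quizartinib (39.99 ± 2.03 compared to 80.04 ± 5.11 CPM, adjusted p = 0.00097). In hBMSC-CM, where 12.3% of all genes were called, quizartinib raised 1 gene of this list and lowered 0. The gene was RIPK1 (log2 0.61, adjusted p = 0.0429), a kinase of the TNF receptor complex.

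Quizartinib in RPMI, which called 34.6% of all genes, also raised 4 and lowered 2 of the 10 receptors, with TLR4, the receptor for lipopolysaccharide, going from 6.38 ± 0.867 to 17.99 ± 0.988 CPM (adjusted p = 4.1e-06). It raised 5 and lowered 3 of the 22 other targets, and TNFAIP2 went from 15.1 ± 2.69 to 79.8 ± 18.7 CPM (log2 2.41, adjusted p = 2.29e-07). Of 8 negative regulators it raised 2, and CYLD, a deubiquitinase that removes the chains on which IKK activation depends, went from 26.2 ± 3.07 to 53.6 ± 2.11 CPM (log2 1.03, adjusted p = 5.62e-05). In hBMSC-CM, where 12.3% of all genes were called, it raised CYLD too (log2 0.93, adjusted p = 0.00126), together with 3 receptors and 2 other targets. It lowered 2 targets there, with TNF going from 30.01 ± 11.5 to 10.3 ± 2.66 CPM (log2 -1.55, adjusted p = 0.00299). Of 4 other family members REL, a subunit gene, was raised in hBMSC-CM (5.31 ± 1.32 compared to 2.31 ± 1.19 CPM, adjusted p = 0.0451), while quizartinib in RPMI called 0 of the 4 (1 at an unadjusted p under 0.05). The quizartinib effect differed between media for IER3, an early response gene (log2 2.56, adjusted p = 0.000914), and TLR2, a receptor for bacterial lipoproteins (log2 1.08, adjusted p = 0.0387). Under everolimus 1 gene of the 5 lists was higher than under vehicle, TLR6 (log2 1.42, adjusted p = 0.0264), where 0.41% of all genes were called. Here too, a separate run of the everolimus cultures cannot be told apart from the drug.

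**Figure D4:**
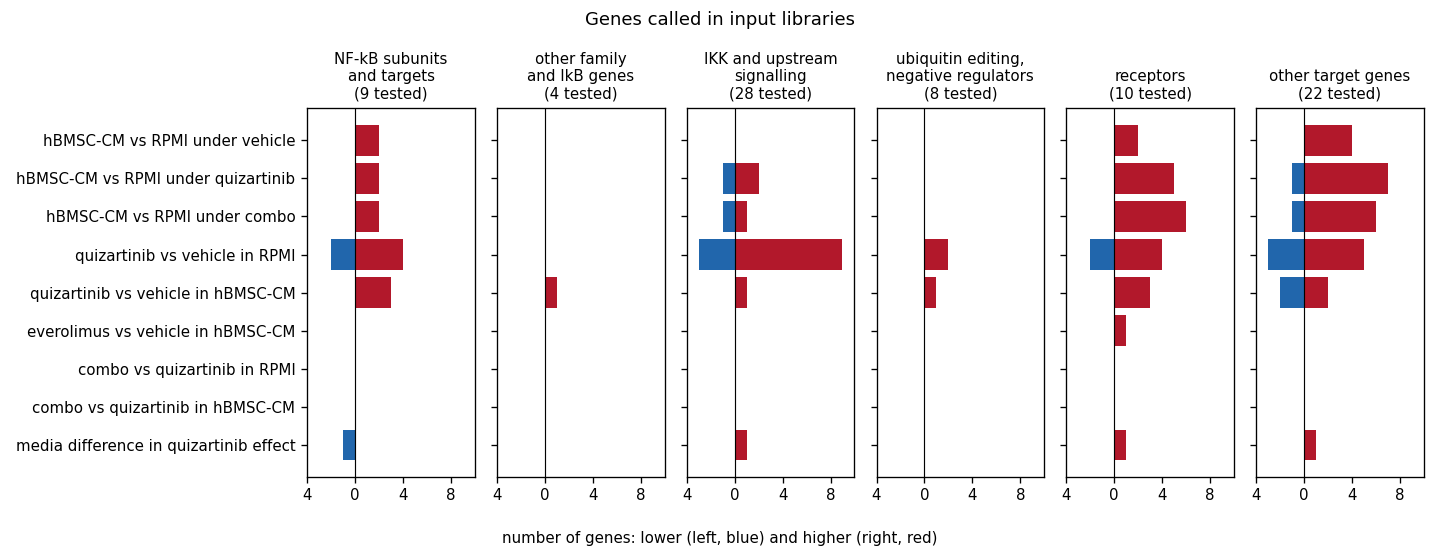
Number of genes called higher (right of 0) and lower (left of 0) in input, for the 9 genes and for 5 lists of other pathway genes, by comparison. The list of IKK and upstream signalling has 9 higher and 3 lower for quizartinib in RPMI and 0 between media under vehicle. In these 2 comparisons 34.6% and 1.51% of all genes were called.

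The genes whose pattern was most like the mean standardized profile of the 6 genes that averaged at least 10 CPM in input were DDX60L (Pearson r = 0.88), ATP8B4 (0.86), MMP14 (0.85), CTSD (0.83) and ST3GAL6 (0.83), over 21 libraries and 8632 genes compared. Over the 7 condition means they were MVB12B (0.985), VASH1 (0.960), CAPN2 (0.948), KANSL3 (0.947) and S1PR4 (0.941). The 6 genes in the profile did not move together, and the profile averages genes that rose and genes that fell.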

How the data were processed

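RNA-seq counts of 42 libraries were analysed. The authors made poly(A)-selected libraries, sequenced them in pairs, trimmed with BBDuk, aligned to Ensembl hg38 with STAR 2.6.0a and deposited raw read counts per gene, with no normalization. The strand setting of the counting is not given in the sources used here. Rows that share a name were summed, and genes with a mean of at least 1 count and 1 CPM were kept, which gave 12939 genes with 99.8% of the counts. Columns were assigned to samples by their names, with 0 unused. CPM are TMM-scaled. Log2 CPM used a prior count of 2.

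The test was edgeR 4.0.16 (R 4.3.3, quasi-likelihood, robust), in 1 fit of 14 group means without a block, since the study's linear model names none. Benjamini-Hochberg adjusted p under 0.05 over all genes was called. There were 25 comparisons: 9 of input, 9 of polysome relative to input and 7 of polysome with input. Comparisons that share a group are not independent. The biological coefficient of variation was 0.279. Exact tests of 3 against 3 cannot go below 0.1. The share of all genes whose groups did not overlap was not determined, so non-overlap only describes the values. On simulated data, for hBMSC-CM compared to RPMI under vehicle, 32% of 2-fold and 79.8% of 4-fold changes were called.

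The genes, lists and tests were chosen with earlier results of these data known. All 10 genes are named, and other genes were chosen as the called gene of a list with the largest change in each direction (mean of at least 1 CPM). Their values are given for part of the input comparisons, and list genes called between polysomes and input are not named. TAGLN, MEIS1, PTPRC and the quizartinib effect on FLT3 were named after their values were seen.

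Alternatives were DESeq2 1.42.0, limma voom 3.58.1, RLE factors, library size, no filter, only the libraries compared, each culture left out, and replicate blocks. After the data were seen, a fit with each library's GC trend removed was added, with GC content from the longest protein-coding GENCODE v44 transcript. The labels do not say what replicate numbers mark. Within a fraction, same-numbered samples deviated together in each comparison (r = 0.33 to 0.66 for input, 0.16 to 0.72 for polysomes), except everolimus with vehicle (input r of -0.01 to 0.00). Between input and polysomes, every r was over 0.1 in RPMI vehicle, RPMI quizartinib and hBMSC-CM vehicle only. Without molecular identifiers, floors cover counting error only.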

Additional observations from a re-analysis of the deposited data

Results flagged for a closer look

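One result was picked out because the quizartinib effect differed between media by a direct test. In input, the log2 effect of quizartinib on BCL3 was lower in hBMSC-CM than in RPMI by -1.70 (SE 0.43, adjusted p = 0.0272, edgeR), with effects of 1.53 and 3.23. BCL3 rose under quizartinib in both media.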

How the results depend on the processing

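Of 73 pairs of gene and comparison followed over up to 33 other fits, 62 were called as reported, 46 of these lost the call in at least 1 fit and 11 others gained one. The direction turned in 8 pairs, in fits with the GC trend removed. The cause of these changes was not tested.

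Counts of genes called moved as follows. With only the libraries compared, hBMSC-CM compared to RPMI under vehicle gave 1 gene and the difference between media 0. The replicate block within each fraction, with or without the GC trend, gave 6 for quizartinib in hBMSC-CM and 2 for everolimus, and with the GC trend removed 2 for combo compared to quizartinib in hBMSC-CM. For polysome relative to input under quizartinib in RPMI, RLE factors, no filter, a block per culture, only the libraries compared, the GC trend removed, and that with a block per culture gave 0. For polysome compared to input, the GC trend removed gave 3, 2 and 1 genes (RPMI vehicle, quizartinib, combo) and 1, 0, 1 and 2 (hBMSC-CM vehicle, quizartinib, everolimus, combo). In the same order, adding a block per culture gave 5, 3 and 3 and 3, 3, 2 and 3, and a block within each fraction in its place 7, 7 and 4 and 4, 7, 2 and 5. That fit called 8 genes for quizartinib in RPMI. Leaving out 1 culture gave 3 to 6 genes for quizartinib in RPMI, 1 to 3 in hBMSC-CM, 0 to 1 for the difference between media and 0 to 1 for NFKB1 in polysomes relative to input. Apart from turned directions, single pairs lost 0 calls and gained 10 with the block within each fraction, lost 3 and gained 2 with the block per culture, and with the GC trend removed as well lost 12 and gained 10, and lost 22 and gained 2.

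Reversed directions, all polysome compared to input, were NFKB2 in RPMI vehicle (-0.11 with the GC trend removed, -0.19 with either block too) and BCL3 in each condition. For BCL3, the GC trend removed gave -0.29, -0.38 and -0.27 (RPMI vehicle, quizartinib, combo) and -0.48, -0.36, -0.06 and -0.32 (hBMSC-CM vehicle, quizartinib, everolimus, combo). In the same order, a block within each fraction gave -0.30, -0.40, -0.25, -0.54, -0.38, -0.04 and -0.35, and a block per culture -0.31, -0.39, -0.26, -0.55, -0.38, -0.06 and -0.34.

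Over all genes, the calls between media under vehicle were 195, with 293 by DESeq2 and 585 with the block within each fraction. Those of quizartinib in hBMSC-CM were 1591 and 3803 with that block, those of everolimus 53, 164 by DESeq2, 105 by limma voom, 133 with the GC trend removed and 675 with the block. For polysome relative to input under quizartinib in RPMI they were 201, 388 by DESeq2 and 1513 with the block.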

Other observations

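Polysome compared to input also varied with transcript length, with Pearson r of -0.36 to -0.19 against log10 length across 10549 genes in the 7 conditions, a value across genes in libraries of the same preparation. The transcripts of the 10 NF-kB genes were 1853 bases (NFKBIA) to 6877 bases (BIRC3) long.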
